A study of Triticum aestivum with 6 samples.

Results

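NAC transcription factors were followed in roots of bread wheat (Triticum aestivum) with and without a short nitrate supply. A gene was counted as a member when the protein that its predicted product matched best in UniProt was named as a NAC domain-containing protein, a NAC transcription factor or the DNA damage regulator SUPPRESSOR OF GAMMA RESPONSE 1 (SOG1). The rule used names and no measured value, and it found 314 members among the 83219 genes of the table. A name such as NAC92-like therefore stands for the most similar protein, mostly from Arabidopsis or rice, and not for a curated wheat symbol. All 6 samples were roots of the wild type JW1, and the comparison addresses how root transcripts respond when nitrate returns after a spell without nitrogen. By the protocols in the labels, plants were germinated over 3 days, had the endosperm taken off, and were kept for 3 days with nitrate at 2 mM and for 2 days in medium free of nitrogen. The 3 libraries called 0N then had 3 hours with KCl at 2 mM, and the 3 libraries called 2N had 3 hours with the potassium nitrate salt at 2 mM, which the labels write as KNO. Nitrate and the added chloride differed together, so their effects cannot be told apart. A cell line label of every sample reads leaf tissue, whereas the tissue label is root.

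NAC proteins are plant-specific transcription factors named after NO APICAL MERISTEM, ATAF and CUP-SHAPED COTYLEDON, and they bind DNA through a conserved domain near the start of the protein. Members of the family are known as switches of leaf senescence and nutrient remobilisation, of wood vessel and fibre differentiation, of lateral root and organ boundary formation, and of responses to drought and salt. Wheat is hexaploid, so most members exist as similar copies on the A, B and D subgenomes. The wheat gene NAM-B1 is known for speeding senescence and the movement of nitrogen from leaves to grain.

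The libraries held 16208306 to 16426359 counts in 0N and 17234841 to 17645560 in 2N. Levels are given as CPM, the counts of a gene brought to a common library size with TMM factors. Levels of different genes are compared as deposited TPM, which takes gene length into account, except where CPM is named. Of the 314 members, 32 had no count in any library, 109 had counts but did not pass the filter on low counts, and 173 were tested. Between 242 and 250 members had a count in a 0N library and between 233 and 242 in a 2N library. The mean TPM over the 6 libraries had a median of 3.44 over the tested members and of 4.24 over all tested genes. In 149 members the deposited count was not a whole number in at least 1 library, and how reads were divided among similar copies is uncertain for these. Counts were therefore also summed over all genes with the same best match, called a type here, before a further fit. No label says whether the replicates were separate cultures, and the p-values therefore reflect only how these samples spread, which may be technical. In whole roots, fewer cells of a type and less RNA per cell cannot be told apart.

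More NAC genes fell than rose with nitrate. Of the 173 tested members, 40 were lower and 8 were higher in 2N at an adjusted p under 0.05 (edgeR's quasi-likelihood test, 2-sided, Benjamini-Hochberg adjustment over all 54313 tested genes). The lower members made up 23.1% of those tested, beside 7.93% of all tested genes, and the higher members 4.62%, beside 7.57%. Members past the threshold in either direction were 27.7% of those tested, beside 15.5% of all genes. In 64 members (37.0%) all 2N libraries were below all 0N libraries, against 16.2% of all tested genes. In 17 members all were above. Among all tested genes the groups did not overlap in 17619, of which 8794 were lower in 2N, so both directions were near even there. Taken in both directions the groups did not overlap in 81 members (46.8%), against 32.4% of all genes, and these included all 48 called members. A fall of at least 1 on the log2 scale was called for 13 members (7.51%, against 3.17% of all tested genes). A rise of that size was called for 1 member, and the share of all tested genes was not tabulated for it. The median log2 fold change, 2N against 0N, was -0.20 over the tested members and 0.00 over all tested genes. Without TMM, on library totals, the same medians were -0.29 and -0.09. The summed level of all members was 2197.3, 2125.3 and 2187 CPM in the 0N libraries and 1888, 1921.1 and 2019.6 CPM in the 2N libraries, so the groups did not overlap.

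**Figure D1:**
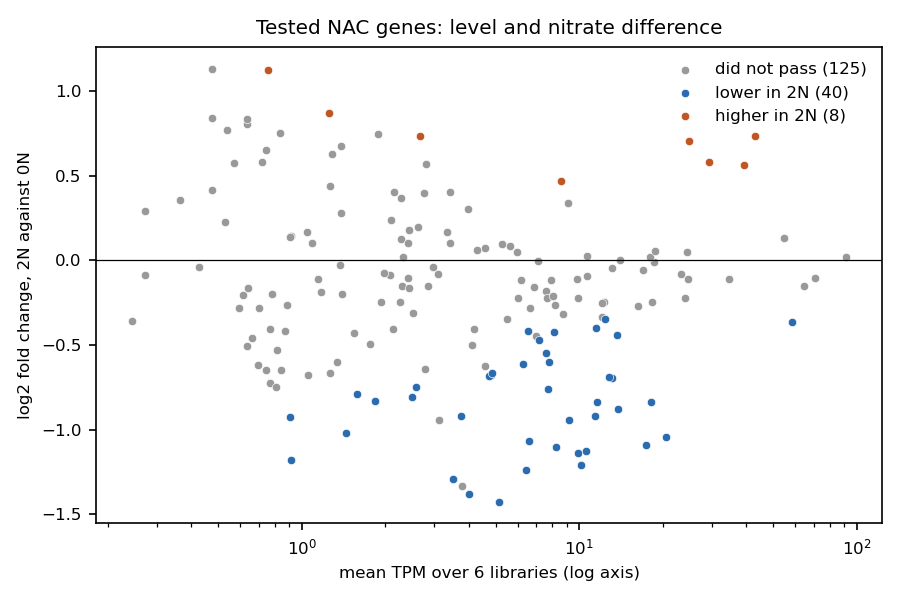
Each point is 1 of the 173 tested NAC genes, with its mean TPM over the 6 libraries on a log axis and its log2 fold change (2N against 0N) on the vertical axis. The 40 members lower in 2N (blue) spread from -0.35 to -1.43, and the 8 higher members (orange) from 0.47 to 1.13.

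The falls held better than the rises when the processing was changed. Of the 40 falls, 25 were called in each of 13 alternative fits that kept the gene, and of the 8 rises only TraesCS5A02G468300 was. Without 0N replicate 1 the count of falls was 26 and the count of rises 2. The rises numbered 4 on leaving out 0N replicate 2, 0N replicate 3, 2N replicate 1 or 2N replicate 3, and 4 by DESeq2. Limma on TPM gave 2 rises and 40 or 42 falls, but it tested only 138 members, those with TPM of at least 1 in at least 3 libraries. On library totals there were 6 rises and 49 falls. Across all tested genes, 4109 rose and 4306 fell with TMM, against 2920 and 6208 on library totals. By limma on log2(TPM + 1), which tested 47808 genes, 2300 rose and 4924 fell.

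**Figure D2:**
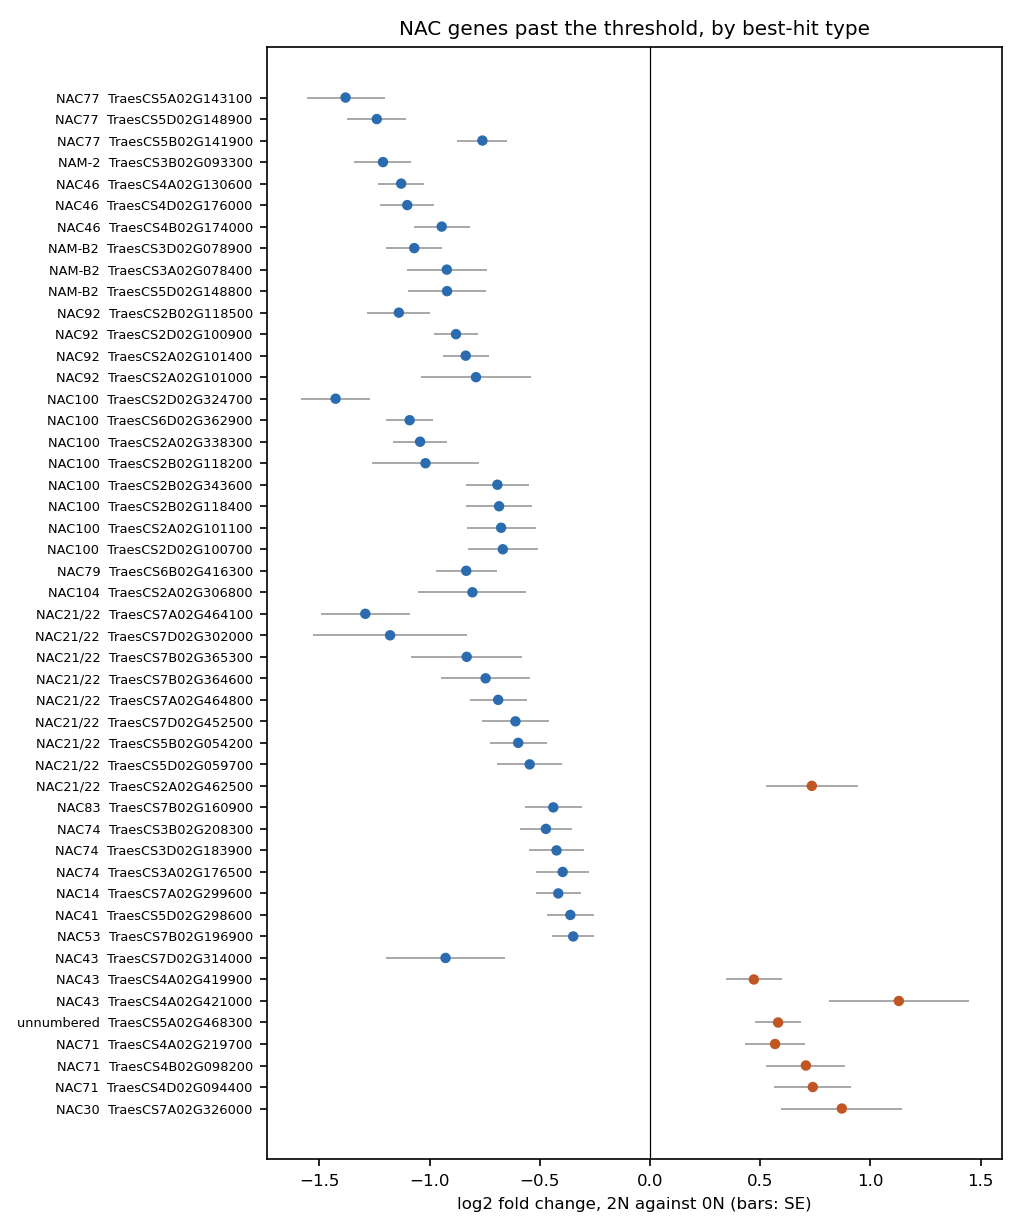
Each row is 1 of the 48 NAC genes past the threshold, grouped by best match, with its log2 fold change (2N against 0N) and standard error. All called genes of the NAC77, NAM, NAC46, NAC92 and NAC100 types lie left of 0, and all 3 of the NAC71 type lie right of it.

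Of 6 types grouped here as related to senescence, 4 fell as summed counts. In Arabidopsis NAC92, also called ORE1, and NAC46 promote leaf senescence, and the NAM proteins of wheat and barley are known for roles in senescence and grain protein. These types (NAC92, NAC46, NAM-A1, NAM-B1, NAM-B2 and NAM-2) held 23 members, of which 15 were tested, 11 fell and 0 rose, with a median log2 fold change of -0.92. Of all tested genes 7.93% fell and 7.57% rose. The summed level of the 23 members was 215.0, 203.3 and 213.4 CPM in 0N and 125.0, 98.7 and 115.7 CPM in 2N. Every 2N library was thus well below every 0N library. The group was put together with the family's results known, so its direction is a description.

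All 4 NAC92-like genes fell. TraesCS2B02G118500 stood at 18.5, 17.9 and 19.6 CPM in 0N and at 10.2, 6.40 and 8.83 CPM in 2N (log2 fold change -1.14 ± 0.14 (SE), adjusted p = 8.1e-05). TraesCS2D02G100900 stood at 25.6, 27.1 and 26.5 CPM in 0N and at 15.1, 13.1 and 14.8 CPM in 2N (-0.88 ± 0.10, adjusted p = 2.3e-05). The groups were far apart in both genes. The copy with the highest CPM, TraesCS2A02G101400, went from 35.5 ± 0.82 (SD, n = 3) to 19.9 ± 2.43 CPM. The copy with the lowest CPM, TraesCS2A02G101000, went from 2.72 ± 0.48 to 1.57 ± 0.46 CPM. It lost its call in 6 of 13 alternative fits (adjusted p up to 0.16). These were DESeq2, the replicate numbers as a block, and the fits without 0N replicates 1 or 2 or 2N replicates 2 or 3. Summed as a type, the 4 genes went from 83.1 ± 1.27 to 44.3 ± 4.25 CPM (-0.91 ± 0.08, adjusted p = 9.6e-06).

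The 3 tested NAC46-like genes, 1 on each of chromosomes 4A, 4B and 4D by the code in their identifiers, also fell. TraesCS4A02G130600 stood at 20.5, 21.8 and 19.9 CPM in 0N and at 9.07, 9.25 and 10.1 CPM in 2N (-1.13 ± 0.10, adjusted p = 3.8e-06). TraesCS4D02G176000 stood at 14.1, 16.2 and 17.9 CPM in 0N and at 7.09, 7.21 and 8.16 CPM in 2N (-1.10 ± 0.12, adjusted p = 2.4e-05). No 2N library reached a 0N library in either gene. The copy TraesCS4B02G174000, whose counts were whole in all 6 libraries, went from 17.4 ± 2.15 to 9.03 ± 1.06 CPM. The summed NAC46 type went from 54.0 ± 1.95 to 26.0 ± 1.72 CPM (-1.06 ± 0.08, adjusted p = 2.6e-06).

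Among the NAM types, the single NAM-2-like gene TraesCS3B02G093300 stood at 14.9, 13.4 and 16.9 CPM in 0N and at 6.73, 5.70 and 7.07 CPM in 2N (-1.21 ± 0.13, adjusted p = 1.6e-05). The NAM-B2-like gene TraesCS3D02G078900 stood at 10.9, 10.6 and 11.9 CPM in 0N and at 5.05, 5.004 and 5.87 CPM in 2N (-1.07 ± 0.13, adjusted p = 4.1e-05). In both genes the highest 2N library lay far below the lowest 0N library. Of the 4 tested NAM-B2-like genes 3 fell. The fourth, TraesCS5A02G143200, stood at 9.75, 5.12 and 4.99 CPM in 0N and at 2.88, 1.22 and 3.81 CPM in 2N, with 0N replicate 1 apart from the others, and did not pass the test (-1.33 ± 0.46, adjusted p = 0.12). The NAM-B2 type as a whole went from 42.3 ± 6.96 to 21.1 ± 4.04 CPM (-1.005 ± 0.16, adjusted p = 0.0022). None of the 3 tested genes most like NAM-B1 was called, with log2 fold changes of -0.50, 0.31 and 0.24, and 1 of the 3 had an unadjusted p under 0.05. DESeq2 and limma on TPM called 0 of these 3. No gene most like NAM-A1 passed the filter on low counts.

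**Figure D3:**
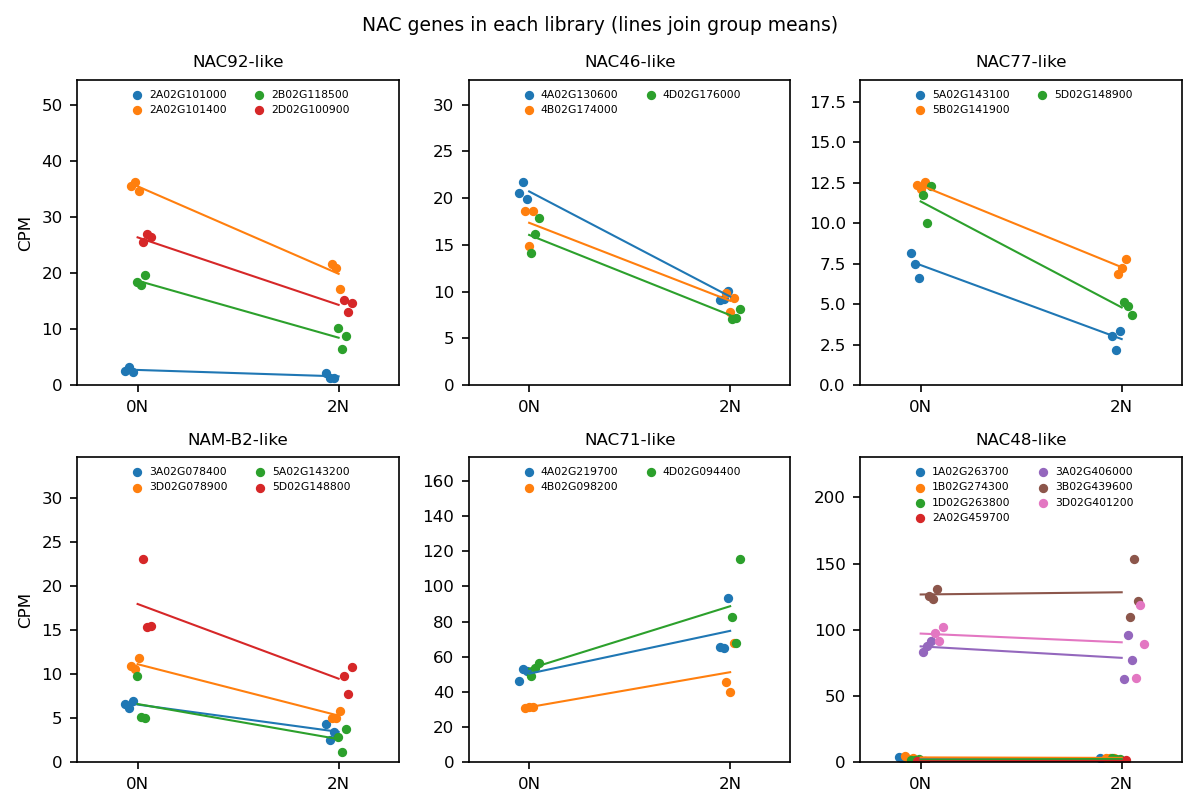
Points give the CPM of each tested gene in each of the 3 libraries of a group, for 6 best-match types, and lines join the group means. The NAC92-like, NAC46-like, NAC77-like and NAM-B2-like genes sit lower in 2N, the NAC71-like genes sit higher with 2N replicate 3 on top, and the abundant NAC48-like genes spread more in 2N than in 0N.

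Genes of senescence and chlorophyll breakdown were read beside these types from their annotation. Of 56 such genes 24 were tested, 9 fell and 7 rose, with a median log2 fold change of -0.53. Of all tested genes 7.93% fell and 7.57% rose. The falls were in enzymes and regulators that take chlorophyll apart. All 3 STAY-GREEN genes fell, as did all 3 tested pheophytinase genes, 2 of 3 pheophorbide a oxygenase genes and 1 of 4 chlorophyll b reductase NOL genes. The STAY-GREEN gene TraesCS5D02G325900, whose product starts chlorophyll breakdown, stood at 18.4, 16.0 and 19.2 CPM in 0N and at 7.81, 7.33 and 8.95 CPM in 2N (-1.16 ± 0.12, adjusted p = 1.1e-05). Every 2N library was below every 0N library. The rises were in other genes with senescence in their names. All 3 genes most like DIN1, a dark-inducible protein of radish, rose, and TraesCS7A02G545100 among them went from 0.59, 0.66 and 0.88 CPM in 0N to 3.90, 6.23 and 4.60 CPM in 2N (2.77 ± 0.26, adjusted p = 4.6e-06). Of the 6 tested genes most like SAG12, a cysteine protease used in Arabidopsis as a marker of leaf senescence, 4 rose. The one with the highest CPM, TraesCS4B02G390100, chosen after its values were seen, went from 627.3 ± 84.3 to 1456 ± 347.3 CPM (1.21 ± 0.17, adjusted p = 0.00066).

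**Figure D4:**
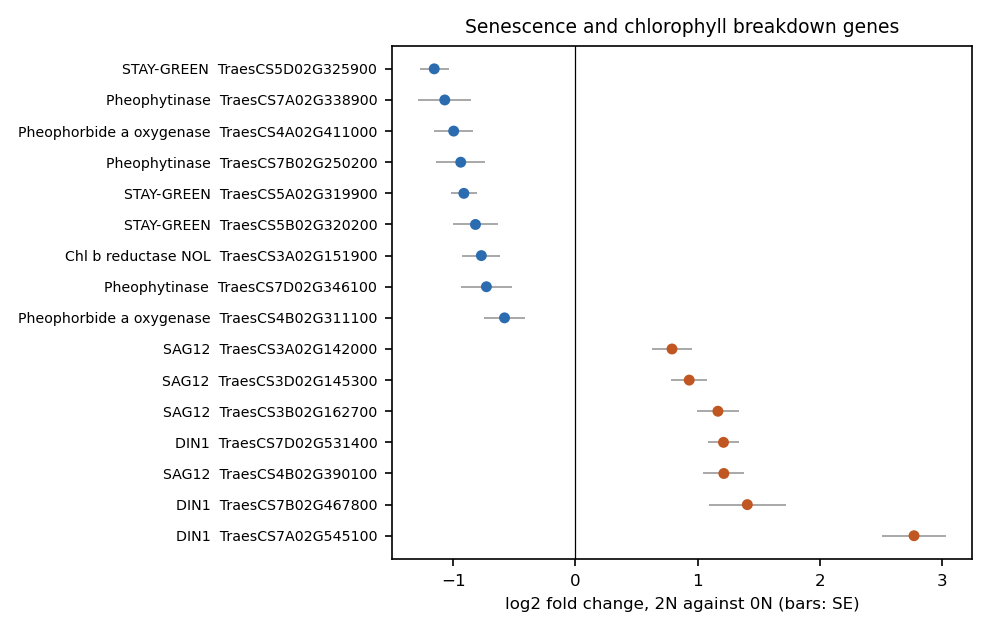
Each row is 1 gene of senescence or chlorophyll breakdown past the threshold, with its log2 fold change (2N against 0N) and standard error. The 9 chlorophyll breakdown genes lie left of 0, and the 7 genes most like SAG12 or DIN1 lie right of it.

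Some leaf markers fell as well. Of 120 genes for Rubisco small subunits, chlorophyll a-b binding proteins and photosystem parts, 20 had no count, 71 were tested, 26 fell and 0 rose. Their median log2 fold change was -0.99, and 7.93% of all tested genes fell. The 6 tested genes for the Rubisco small subunit of the barley type summed to 71.4 CPM in 0N and 38.3 CPM in 2N. The summed level of all 120 leaf markers was 343.2, 254.5 and 537.4 CPM in 0N and 140.7, 259.6 and 199.7 CPM in 2N, so the groups overlapped. The leaf marker sum was highest in 0N replicate 3 and lowest of the 0N libraries in 0N replicate 2. In 0N replicates 1 to 3 the NAC92 type stood at 81.9, 84.4 and 82.9 CPM and the NAC46 type at 53.1, 52.8 and 56.3 CPM. The NAC46 type thus had the same order of the 0N libraries as the leaf marker sum, and the NAC92 type had another. In 2N replicates 1 to 3 the NAC92 type stood at 49.15, 41.5 and 42.1 CPM and the NAC46 type at 26.1, 24.2 and 27.6 CPM. Both types were lowest in 2N replicate 2, where the leaf marker sum was the highest of the 2N libraries. The part of the leaf markers in the result was not tested. Of the root markers, the 3 tested genes for aquaporin NIP2-1 summed to 284.0 CPM in 0N and 244.6 CPM in 2N. The 3 tested genes for Casparian strip membrane protein 1 summed to 82.2 CPM in 0N and 124.7 CPM in 2N. Transcripts of root-defining genes were thus present in both groups. In all, 21 of 26 tested root markers rose and 1 fell, beside 7.57% and 7.93% of all tested genes. Of these rises, 17 were genes of the nitrate transporter NRT2.1 type.

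Falls were also found among types whose Arabidopsis counterparts are targets of the microRNA miR164. In Arabidopsis miR164 cleaves transcripts of NAC92, NAC100, NAC79, NAC21/22 and the organ boundary genes CUP-SHAPED COTYLEDON 1 and 2. Whether the wheat transcripts carry a miR164 site was not analysed here. The NAC92, NAC100, NAC79 and NAC21/22 types held 38 members, of which 32 were tested, 21 fell and 1 rose, with a median log2 fold change of -0.68. Of all tested genes 7.93% fell and 7.57% rose. The 4 falls of the NAC92 type are among those already given. The summed level of the 38 members went from 349.5 ± 5.12 CPM in 0N to 214.8 ± 14.7 CPM in 2N. The CUP-SHAPED COTYLEDON genes are named differently in UniProt and so are no members. Together with genes most like the root cap regulators FEZ and BEARSKIN2 and with NTM1-like 9, they formed a list of 41 NAC family genes, of which 13 were tested and 0 rose or fell (median log2 fold change 0.16). Among these 13 genes edgeR gave 0 an unadjusted p under 0.05, and DESeq2 and limma on TPM called 0. The 3 genes most like CUP-SHAPED COTYLEDON 2 had log2 fold changes of 0.00 to 0.27, and the 3 most like CUP-SHAPED COTYLEDON 1 of -0.36 to 0.29.

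NAC100-like and NAC21/22-like genes each gave 8 falls, more than any other type. Of 12 tested NAC100-like genes 8 fell and 0 rose. TraesCS2D02G324700 stood at 7.79, 7.66 and 9.57 CPM in 0N and at 2.94, 2.85 and 3.51 CPM in 2N, which was the deepest fall among the called members (-1.43 ± 0.16, adjusted p = 2.3e-05). TraesCS6D02G362900 stood at 43.8, 42.1 and 41.3 CPM in 0N and at 22.8, 19.6 and 17.2 CPM in 2N (-1.09 ± 0.11, adjusted p = 7.5e-06). In both genes all 2N libraries were below all 0N libraries by a wide margin. The other 6 falls ranged from -0.67 to -1.04, and the 4 genes that did not pass from -0.65 to 0.09. All 8 falls were called in all 13 alternative fits. The counts of these 8 genes were not whole in at least 2 libraries, and the summed type, which does not depend on how reads were divided within it, went from 139.5 ± 2.72 to 77.1 ± 6.56 CPM (-0.86 ± 0.08, adjusted p = 1.2e-05).

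NAC21/22, also called NAC1, is known in Arabidopsis for carrying the auxin signal in lateral root formation. Of the 12 tested genes of this type 8 fell and 1 rose. The calls of 5 of the 8 falls were lost without 0N replicate 1, and those of the same 5 genes without 2N replicate 1, whereas TraesCS5B02G054200, TraesCS7A02G464100 and TraesCS7A02G464800 were called in all 13 alternative fits. DESeq2 called 5 of the 12 genes. TraesCS7A02G464100 stood at 5.29, 6.03 and 7.64 CPM in 0N and at 2.16, 3.32 and 2.24 CPM in 2N (-1.29 ± 0.20, adjusted p = 0.00047). TraesCS7D02G302000, a gene near the filter, stood at 1.13, 1.39 and 1.29 CPM in 0N and at 0.36, 0.47 and 0.85 CPM in 2N (-1.18 ± 0.35, adjusted p = 0.033). The groups did not overlap in either gene, but the call of the second was lost without 0N replicates 1, 2 or 3, without 2N replicates 1 or 2 and by DESeq2, where its adjusted p reached 0.14. The rise was in TraesCS2A02G462500, which stood at 2.32, 1.99 and 1.53 CPM in 0N and at 3.24, 2.97 and 3.51 CPM in 2N (0.73 ± 0.21, adjusted p = 0.027). Its groups did not overlap either, and its call was lost in 5 of 13 alternative fits, by DESeq2 and without 0N replicates 2 or 3 or 2N replicates 1 or 3 (adjusted p up to 0.12). By chromosome group, 6 of 8 tested genes on group 7 and both on group 5 fell, and the rise was on group 2. The summed type went from 73.4 ± 4.85 to 50.0 ± 4.03 CPM (-0.55 ± 0.08, adjusted p = 0.00063).

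The Arabidopsis entry NAC79 covers NAC4, a factor known to act in the nitrate response of Arabidopsis roots downstream of an auxin receptor. Of the 4 tested NAC79-like genes only TraesCS6B02G416300 fell, from 20.03, 21.5 and 19.7 CPM in 0N to 13.3, 8.67 and 12.4 CPM in 2N (-0.83 ± 0.14, adjusted p = 0.00086). Its groups were well apart. The gene on 5D, TraesCS5D02G283200, was higher in all 2N libraries, at 12.7, 13.3 and 14.6 CPM against 11.5, 9.04 and 11.6 CPM, and did not pass (0.34 ± 0.12, adjusted p = 0.078). Summed, the type went from 52.4 ± 1.57 to 43.2 ± 4.34 CPM (-0.28 ± 0.09, adjusted p = 0.047). This call of the sum was lost in 7 of 11 alternative fits, by DESeq2, with the replicate numbers as a block, and without each 0N library, 2N replicate 2 or 2N replicate 3 (adjusted p up to 0.14).

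**Figure D5:**
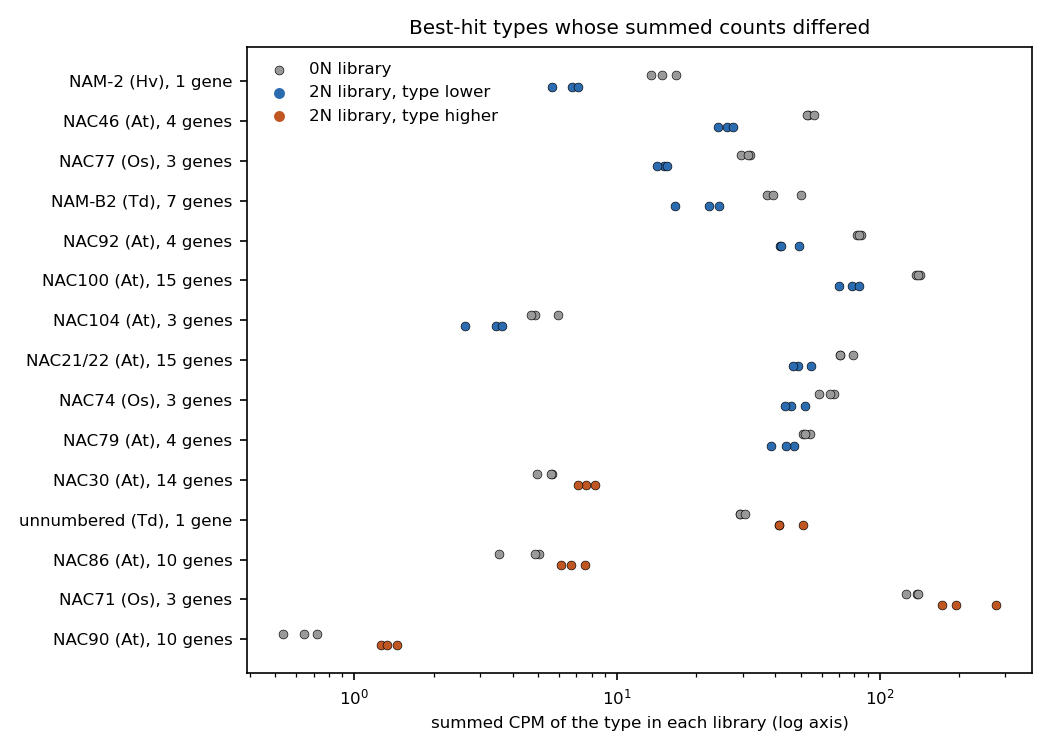
Each row is a best-match type whose summed counts differed between the groups, and points give its summed CPM in each library on a log axis (grey for 0N, colour for 2N; At, Arabidopsis; Os, rice; Td, durum wheat; Hv, barley). The 10 types in blue were lower in 2N and the 5 in orange higher, and the groups do not overlap in any of them.

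Of the 59 types that could be tested, 15 (25.4%) were called, against 15.6% of all types. Of these, 10 were lower in 2N (16.9%, against 7.77% of the 23665 types of the whole table) and 5 were higher (8.47%, against 7.85%). The median log2 fold change was -0.14 over the NAC types and 0.00 over all types. The NAC92, NAC46, NAC77, NAC100, NAC21/22, NAC74, NAM-2 and NAM-B2 types kept their falls in all 11 alternative fits. Without 0N replicate 1 a single type was higher, and 3 were higher on leaving out 0N replicate 3, 2N replicate 1 or 2N replicate 3. On library totals 18 types were lower and 4 higher.

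NAC77-like genes fell on all 3 subgenomes. The rice protein NAC77 is also known as ONAC300 and is expressed in the phloem of rice. TraesCS5A02G143100 stood at 8.14, 7.48 and 6.64 CPM in 0N and at 3.06, 2.15 and 3.33 CPM in 2N (-1.38 ± 0.18, adjusted p = 8.5e-05). TraesCS5D02G148900 stood at 11.8, 10.01 and 12.3 CPM in 0N and at 5.17, 4.89 and 4.35 CPM in 2N (-1.24 ± 0.13, adjusted p = 1.9e-05). The 2N libraries lay below the 0N libraries without overlap in both. TraesCS5B02G141900, with whole counts in all 6 libraries, went from 12.4 ± 0.23 to 7.29 ± 0.48 CPM, and the summed type from 31.0 ± 1.34 to 14.9 ± 0.68 CPM (-1.06 ± 0.09, adjusted p = 4.2e-06).

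Another phloem type moved the other way at a low level. In Arabidopsis NAC45 and NAC86 drive the loss of the nucleus in sieve elements. None of the 5 tested NAC86-like genes passed alone, with log2 fold changes of 0.42 to 0.84. By edgeR 2 of these 5 had an unadjusted p under 0.05, DESeq2 called 0, and none of the 5 entered the fit on TPM. Summed over all 10 NAC86-like genes, the type stood at 3.55, 5.05 and 4.86 CPM in 0N and at 7.52, 6.65 and 6.12 CPM in 2N (0.59 ± 0.16, adjusted p = 0.025). The groups did not overlap, and the call was lost without 0N replicate 1, without 2N replicate 1 and with the replicate numbers as a block (adjusted p up to 0.12). The NEN exonucleases act below NAC45 and NAC86 in Arabidopsis. Of 9 NEN-like genes 8 were tested and 0 rose or fell by edgeR (median log2 fold change -0.05). Of these 8, 1 had an unadjusted p under 0.05, and DESeq2 and limma on TPM called 0.

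Among types named after rice stress regulators, the 3 NAC71-like genes rose and the more abundant NAC48-like genes were not called. NAC71 is OsNAC5 and NAC48 is OsNAC6, which in rice respond to drought, salt and abscisic acid. TraesCS4A02G219700 stood at 46.3, 52.9 and 52.0 CPM in 0N and at 65.7, 65.2 and 93.3 CPM in 2N (0.57 ± 0.13, adjusted p = 0.013). TraesCS4B02G098200 stood at 31.0, 31.5 and 31.7 CPM in 0N and at 45.7, 40.0 and 68.1 CPM in 2N (0.71 ± 0.18, adjusted p = 0.029). TraesCS4D02G094400 stood at 49.0, 53.8 and 56.7 CPM in 0N and at 82.5, 68.1 and 116 CPM in 2N (0.74 ± 0.18, adjusted p = 0.021). In all 3 genes every 2N library was above every 0N library, and 2N replicate 3 was the highest. The summed NAC71 type went from 134.5 ± 7.60 to 214.6 ± 55.4 CPM (0.67 ± 0.17, adjusted p = 0.032). Its call was lost without 0N replicate 1, 2 or 3 and with no filter on low counts (adjusted p up to 0.12). The calls of the genes on 4B and 4D were lost without each 0N library, that of the gene on 4A without 0N replicate 1, and limma on TPM called 0 of the 3.

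The 3 NAC48-like genes on chromosome group 3 were the most abundant members. Their mean TPM over the 6 libraries was 91.7 for TraesCS3B02G439600, 70.9 for TraesCS3D02G401200 and 64.5 for TraesCS3A02G406000. TraesCS3B02G439600 stood at 125.9, 123.3 and 131.0 CPM in 0N and at 109.8, 153.6 and 122.0 CPM in 2N (0.02 ± 0.12, adjusted p = 0.94). TraesCS3D02G401200 stood at 97.7, 91.9 and 102 CPM in 0N and at 63.7, 119 and 89.5 CPM in 2N (-0.10 ± 0.20, adjusted p = 0.81). TraesCS3A02G406000 stood at 83.5, 87.6 and 91.6 CPM in 0N and at 63.3, 96.2 and 77.3 CPM in 2N (-0.15 ± 0.13, adjusted p = 0.51). In all 3 the 2N libraries surrounded the 0N libraries, with 2N replicate 1 the lowest and 2N replicate 2 the highest of the 6. Over the 7 tested NAC48-like genes edgeR gave 0 an unadjusted p under 0.05, and DESeq2 and limma on TPM called 0. Of the 8 tested genes most like rice NAC2 (SNAC1, known for drought tolerance in rice), NAC67 and NAC68, edgeR called 0, and 2 had an unadjusted p under 0.05. Of these 8, DESeq2 called 1, a NAC68-like gene, and limma on TPM called 0.

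Among genes most like vessel and fibre switches, 3 rose and 1 fell. The VND proteins of Arabidopsis (NAC7, NAC26, NAC30 and NAC37) turn on vessel differentiation and the NST proteins (NAC12, NAC43 and NAC66) fibre wall thickening. They held 41 members, of which 25 were tested, and the 4 calls are a share near the 15.5% of all tested genes. The log2 fold changes ran from -0.93 to 1.13 with a median of 0.23, and the summed levels were 52.8 ± 1.57 CPM in 0N and 62.4 ± 7.28 CPM in 2N. DESeq2 called 0 of these 25 genes. The NAC30-like (VND7) gene TraesCS7A02G326000 stood at 0.77, 0.84 and 1.17 CPM in 0N and at 1.68, 1.51 and 1.94 CPM in 2N (0.87 ± 0.27, adjusted p = 0.045). The NAC43-like (NST1) gene TraesCS4A02G421000 stood at 0.54, 0.90 and 1.06 CPM in 0N and at 2.16, 1.28 and 2.06 CPM in 2N (1.13 ± 0.32, adjusted p = 0.025). A further NAC43-like gene, TraesCS4A02G419900, stood at 6.90, 7.11 and 6.46 CPM in 0N and at 10.1, 8.32 and 9.98 CPM in 2N (0.47 ± 0.13, adjusted p = 0.021). The groups did not overlap in any of the 3 genes, and their calls were lost in 9 of 13, 5 of 11 and 8 of 13 alternative fits, with adjusted p up to 0.18. The calls of all 3 were lost without 0N replicate 1, and likewise without 2N replicates 1 or 3. Those of the first pair were also lost without 0N replicate 2, and that of TraesCS4A02G419900 without 0N replicate 3. The fall was in TraesCS7D02G314000, a NAC43-like gene on 7D, from 2.16 ± 0.22 to 1.14 ± 0.37 CPM (-0.93 ± 0.27, adjusted p = 0.030). This call was lost in 6 of 13 alternative fits, among them those without 0N replicates 1 or 2 and 2N replicates 2 or 3 (adjusted p up to 0.10). The summed NAC30 type went from 5.41 ± 0.38 to 7.64 ± 0.56 CPM (0.50 ± 0.13, adjusted p = 0.021), a call that was lost on leaving out 0N replicate 1, 2N replicate 1 or 2N replicate 3, on library totals and by DESeq2 (adjusted p up to 0.099).

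Other wall and xylem types gave 2 falls and no rise among 18 tested genes, of which DESeq2 called 0. The 2 calls are a share near that of all tested genes, of which 7.93% fell and 15.5% were called in either direction. They match SND2 (NAC73) and SND3 (NAC10), activators of wall synthesis in Arabidopsis, and XND1 (NAC104), VNI1 (NAC82) and VNI2 (NAC83), which act there on xylem formation. The falls were TraesCS2A02G306800, a NAC104-like gene, from 2.26 ± 0.33 to 1.29 ± 0.25 CPM (-0.81 ± 0.25, adjusted p = 0.038), and TraesCS7B02G160900, a NAC83-like gene, from 18.7 ± 2.21 to 13.8 ± 2.20 CPM (-0.44 ± 0.13, adjusted p = 0.032). Their calls were lost in 7 and 5 of 13 alternative fits, both on leaving out 0N replicate 1, 2N replicate 2 or 2N replicate 3 (adjusted p up to 0.14). The first was also lost without 0N replicate 2 or 2N replicate 1 and with the replicate numbers as a block, and the second without 0N replicate 3. The NAC104 type stood at 5.98, 4.87 and 4.68 CPM in 0N and at 2.65, 3.47 and 3.63 CPM in 2N (-0.67 ± 0.18, adjusted p = 0.021). Its groups did not overlap, and its call was lost without 0N replicate 1 or 2N replicate 1 (adjusted p up to 0.096). The 3 copies of NAC73 on chromosome group 3 had log2 fold changes of -0.34, -0.31 and -0.22 and did not pass, with adjusted p from 0.052 to 0.19. A search of the annotation for genes of secondary walls and xylem cell death found 159, of which 113 were tested, 5 rose and 18 fell (median log2 fold change -0.09). After a reading of the table, genes whose leading name was a cinnamoyl-CoA reductase, the glycosyltransferase BC10 or a kinesin were left out. Of the remaining 50 genes 35 were tested, 1 rose and 2 fell (median -0.11). The share called in either direction was above the 15.5% of all tested genes in the full search and below it in the remaining genes. The gene most like IRREGULAR XYLEM 15, TraesCS6D02G121700, which in Arabidopsis serves xylan synthesis, went from 8.86, 11.998 and 10.98 CPM to 8.05, 6.05 and 8.04 CPM (-0.52 ± 0.15, adjusted p = 0.027). The gene most like Metacaspase-9, TraesCS5A02G139900, a protease of dying xylem in Arabidopsis, went from 32.9, 34.0 and 28.4 CPM to 25.5, 22.4 and 26.3 CPM (-0.36 ± 0.10, adjusted p = 0.029). Neither gene's groups overlapped, and both calls were lost by DESeq2, with the replicate numbers as a block and on leaving out 0N replicate 2 or 2N replicate 2, with adjusted p up to 0.092. The Metacaspase-9 call was also lost on leaving out 0N replicate 1, 2N replicate 1 or 2N replicate 3, and the IRREGULAR XYLEM 15 call without 0N replicate 3.

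Among members most like membrane-tethered NAC proteins, 5 of 13 tested genes fell, beside 7.93% of all tested genes. DESeq2 called 3 of these 13. Such proteins are held at a membrane and are released to enter the nucleus. In the types NAC14, NAC16, NAC17, NAC53 and NAC78 of Arabidopsis and NAC74 of rice, no gene rose, and the 13 log2 fold changes ran from -0.47 to 0.10 with a median of -0.21. All 3 NAC74-like genes fell, by 0.40 to 0.47 on the log2 scale. TraesCS3B02G208300 stood at 22.9, 20.1 and 16.9 CPM in 0N and at 13.9, 14.3 and 14.996 CPM in 2N (-0.47 ± 0.12, adjusted p = 0.013). Its groups did not overlap, and the call was lost without 0N replicate 1 (adjusted p = 0.068). The calls of the other 2 NAC74-like genes were lost in 6 and 7 of 13 alternative fits (adjusted p up to 0.18). Both were lost by DESeq2, with the replicate numbers as a block, and without 0N replicates 1 or 3 or 2N replicates 1 or 3. The summed NAC74 type went from 63.4 ± 4.36 to 47.2 ± 4.34 CPM (-0.42 ± 0.09, adjusted p = 0.0055). The remaining falls were TraesCS7A02G299600, a NAC14-like gene, at -0.42 ± 0.10, and TraesCS7B02G196900, a NAC53-like gene, at -0.35 ± 0.09, neither of which was called as a summed type. Both calls were lost without 0N replicate 1 and without 2N replicate 1. The second was also lost without 0N replicate 3 or 2N replicate 3 and with the replicate numbers as a block.

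The NAC41-like genes were abundant and differed among the subgenomes in their calls. TraesCS5D02G298600, with a mean TPM of 58.5, stood at 44.6, 47.2 and 47.1 CPM in 0N and at 38.5, 30.3 and 39.3 CPM in 2N (-0.36 ± 0.11, adjusted p = 0.033). TraesCS5B02G290200, with a mean TPM of 54.7, stood at 45.8, 43.0 and 37.9 CPM in 0N and at 48.3, 40.8 and 49.5 CPM in 2N (0.13 ± 0.11, adjusted p = 0.48). The groups did not overlap in the gene on 5D and overlapped in the gene on 5B, and the difference between the genes was not tested. The call on 5D was lost without 0N replicate 1, 2 or 3, without 2N replicate 2 and with the replicate numbers as a block (adjusted p up to 0.11).

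SOG1-like genes and genes of the DNA damage response were not called. SOG1 is the master regulator of the DNA damage response in Arabidopsis. Of 17 SOG1-like members 9 were tested, with log2 fold changes of -0.28 to 0.14 and summed levels of 40.0, 43.1 and 38.3 CPM in 0N and 35.7, 38.1 and 38.7 CPM in 2N. The groups overlapped. Of 38 DNA damage response genes 24 were tested, with a median log2 fold change of 0.04. In both sets edgeR called 0 and gave 0 an unadjusted p under 0.05, and DESeq2 and limma on TPM called 0. Proteins known to bind NAC factors or to mark them for breakdown (RCD1, SRO and SINAT proteins) numbered 17 tested genes. Of these 0 rose and 1 fell, beside 15.5% of all tested genes called in either direction. The fall was in TraesCS1A02G136400, most like the ubiquitin ligase SINAT3, at 18.5, 18.3 and 18.8 CPM in 0N and 15.7, 15.1 and 13.3 CPM in 2N (-0.34 ± 0.10, adjusted p = 0.036). Its groups did not overlap, but the call was lost without any 1 of the 6 libraries, by DESeq2 and with the replicate numbers as a block (adjusted p up to 0.17).

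Members whose best match carries no number were mostly untested. Of 75 such members 19 passed the filter and 1 was called, beside 15.5% of all tested genes. The called member, TraesCS5A02G468300, stood at 29.4, 29.3 and 30.8 CPM in 0N and at 41.4, 51.1 and 41.4 CPM in 2N (0.58 ± 0.10, adjusted p = 0.0013). Its lowest 2N library was well above its highest 0N library, its counts were whole in all 6 libraries, and its adjusted p stayed at 0.023 or below in all 13 alternative fits. The 10 NAC90-like members were each below the filter. Summed, they stood at 0.53, 0.72 and 0.64 CPM in 0N and at 1.26, 1.33 and 1.45 CPM in 2N (1.08 ± 0.28, adjusted p = 0.020). The groups did not overlap, and the call of this low sum was lost by DESeq2 and on leaving out 0N replicate 1, 0N replicate 3 or 2N replicate 3 (adjusted p up to 0.12).

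Copies on the A, B and D subgenomes did not go in opposite directions past the threshold. There were 22 sets with the same best match, the same chromosome group and 1 tested gene on each subgenome. In 3 of them all 3 genes fell (NAC46 on group 4, NAC77 on group 5 and NAC74 on group 3), in 1 all 3 rose (NAC71 on group 4), in 5 some were called and in 13 none was. No set held calls in both directions. Members with neighbouring identifiers formed clusters on the group 2 chromosomes that mix NAC92-like and NAC100-like genes. In the cluster on 2A all 3 tested members fell, in that on 2B all 3 and in that on 2D 2 of 3. On 4A, 4B and 4D the NAC46-like gene lies near a NAM-B1-like gene by identifier, and on each chromosome the former fell and the latter was not called. The gene beside a NAC77-like gene was most like NAM-B2 on 5A and 5D and was called on 5D only; the difference between these chromosomes was not tested.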

How the data were processed

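Bread wheat root RNA was measured in 6 libraries, 3 without nitrate (0N) and 3 with nitrate (2N), grouped by their labels. The authors deposited expected counts per gene that are not normalized, of which 45.1% are not whole (tolerance 1e-06), and TPM values, per the file headers. HISAT and Bowtie2 are named in the submitters' processing notes; their versions and roles, the genome build, the annotation, the counter and strandedness were not given in the sources used here, so sense and antisense reads of overlapping genes are not separable. The reference table held 0 of the gene identifiers, so no coordinates or sequences are given. A further 20 columns of per-sample or mean values were not used.

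Expected counts were rounded, filtered by filterByExpr (minimum count 10, minimum total 15), scaled by TMM and fitted over the whole table with edgeR's robust quasi-likelihood test (2-sided, Benjamini-Hochberg adjustment, threshold 0.05). Types were fitted in the same way after summing the counts of genes with the same UniProt best match over the whole table. SE values are approximate, the absolute log2 fold change over the root of the F statistic. The fit was tested on simulated data. Alternatives were DESeq2, library totals, no filter, CPM of at least 1 in at least 3 libraries, the replicate number as a block, each library left out, and for genes limma on log2(TPM + 1) and log2(TPM + 0.1). The tools were edgeR 4.0.16, DESeq2 1.42.0 and limma 3.58.1 in R 4.3.3, with figures by matplotlib 3.10.9.

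The members and lists were chosen with earlier results of these data known. Role groups, the NEN list and the removal of mismatched descriptions from lists followed a reading of the table. The rule for named genes took the 10 largest rises and falls past the threshold with a mean of at least 1 CPM in the higher group and groups that do not overlap, the 5 most abundant members, the smallest p in each type with 2 or more called members and the 2 called genes of each other list with the smallest p. Further genes were named after their values were seen. A planned permutation test of the summed level is not given, because members were chosen with results known.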

Additional observations from a re-analysis of the deposited data

How the results depend on the processing

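None of the called genes named by the rule and none of the called types had its direction reversed in the alternatives run for it. The NAC48-like genes TraesCS3B02G439600 and TraesCS3D02G401200, named for their abundance and not called, changed sign. Their log2 fold changes ran from -0.13 to 0.12 and from -0.34 to 0.10. For genes not named by the rule this was not tabulated. The NAC genes higher in 2N numbered 8, against 4 by DESeq2 and 2 by limma on log2(TPM + 1) or log2(TPM + 0.1), and 2 to 9 with a library left out. The limma fits tested fewer genes, 138 NAC genes and 47808 in all. The NAC genes lower in 2N numbered 40, against 26 to 36 with a library left out. NAC types higher in 2N numbered 5, against 3 by DESeq2 and 1 to 6 with a library left out. NAC types lower in 2N numbered 10, against 18 on library totals and 8 to 13 with a library left out. Over all genes, 4109 were higher, against 2300 and 2252 by limma on log2(TPM + 1) and log2(TPM + 0.1) and 2622 to 4285 with a library left out, and 4306 were lower, against 3082 to 4100. Same-numbered libraries deviated from their group means with correlations of -0.005, -0.106 and 0.026. Those of differently numbered libraries ran from -0.10 to 0.11. With so few libraries these values cannot decide whether the numbers pair the samples. With the replicate block, 7 NAC genes were higher and 35 lower, 4 types were higher and 9 lower, and over all genes 3454 were higher and 3845 lower. The cause of these shifts was not tested. Genes near the filter of 10 counts are limited by depth.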

Other observations

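By the code in the identifiers, 110 members lie on the A subgenome, of which 64 were tested, 6 rose and 12 fell. On B there were 98 members, of which 53 were tested, 1 rose and 14 fell. On D there were 98 members, of which 54 were tested, 1 rose and 14 fell. Of all tested genes 7.57% rose and 7.93% fell, and these shares were not tabulated by subgenome. The median log2 fold changes of the members were -0.13 on A, -0.20 on B and -0.25 on D, and differences between the subgenomes were not tested.

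Among the MYB factors that NAC switches act through in Arabidopsis walls, the 5 tested genes most like MYB83 had log2 fold changes of 0.32 to 0.67 and adjusted p of 0.18 to 0.45. The single tested gene most like MYB46, TraesCS7D02G300000, stood at -0.77 ± 0.24 (SE) with an adjusted p of 0.059 by edgeR.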
